A study of Mus musculus with 30 samples.

Results

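The 36 genes described here drive a cell from G1 through DNA replication into mitosis, and they were followed in the livers of 30 mice of 2 strains kept on 3 iron diets. They were chosen by name, as the non-control array probes annotated to one of 36 cell cycle and replication genes. No measured value entered that rule, but the list was drawn up with earlier results of these data known. All 36 were on the array, 35 of them had enough signal and enough usable spots to be tested, and they stand among 21075 tested genes in all. For the description they were split into 8 G1 genes, 15 replication genes and 13 mitosis genes, of which 8, 15 and 12 were tested. Birc5, the survivin subunit of the chromosomal passenger complex, was the one not tested: its probe was well above background on all 30 arrays but carried outlier marks, which left 24 usable values and only 2 of 5 in D2 mice on the balanced diet.

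Total liver RNA of single mice was hybridised to 1-colour (Cy3) Agilent whole mouse genome arrays, 1 array per mouse. The groups were DBA/2 (D2) and C57BL/6 (B6), both inbred strains, each given food enriched to 8.3 g iron per kg, food deficient in iron (under 3 mg per kg) or balanced food with 200 mg iron per kg, which served as the control diet. Each of the 6 groups held 5 mice, and every label carries an animal code of its own. The labels used here give no sex, age or time on the diet, and no mouse was described as carrying a mutation or a transgene. The series asked which liver genes follow iron stores. A strain difference below is a difference between 2 inbred strains over the whole genome.

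Resting hepatocytes rarely divide, but they can re-enter the cycle. In G1, D-type cyclins (Ccnd1, Ccnd2, Ccnd3) with Cdk4, and then E-type cyclins (Ccne1, Ccne2) with Cdk2, phosphorylate the retinoblastoma protein and free E2F factors such as E2f1. Cdc6 and Cdt1 then load the Mcm2 to Mcm7 helicase ring on DNA, which geminin (Gmnn) prevents from happening again in the same cycle, and Mcm10 helps to start the fork. Pcna is the sliding clamp of the polymerases, Rrm1, Rrm2 and Tyms make deoxynucleotides, and Chek1 is the checkpoint kinase that watches the fork. Cyclins A and B (Ccna2, Ccnb1, Ccnb2) with Cdk1, and the kinases Plk1, Aurka, Aurkb and Bub1, with Cdc20, Top2a, Mki67 and Cep55, carry the cell through mitosis and its final separation.

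Promoter sequences are shown because genes of the S phase and of mitosis are classically recognised by different promoter elements. RefSeq promoters (GRCm38.p6, 250 bases before to 50 after the start, printed 5′ to 3′ on the gene's strand) were matched by symbol for 29 of the 36 members; Ccnd1, Ccnd2, Ccne2, Gmnn, Mcm4, Ccna2 and Aurkb had none to match. Searched on both strands, with overlapping matches counted, were the E2F letters TTTGGCGC, TTTCCCGC, TTTCGCGC or TTTGCCGC, the cell cycle homology region (CHR) TTTGAA, and CCAAT. Capitals mark the matches, and a match on the other strand reads as its reverse complement, so that CCAAT appears as ATTGG. Printed are the replication genes Mcm2 at chr6:88898731-88899030 (minus strand), Mcm10 at chr2:5012742-5013041 (minus strand) and Mcm6 at chr1:128359656-128359955 (minus strand). Beside them stand the mitosis genes Cep55 at chr19:38054734-38055033 (plus strand), Plk1 at chr7:122159185-122159484 (plus strand) and Mki67 at chr7:135716330-135716629 (minus strand). All are described below, but Plk1 and Mki67 passed the test in no comparison.
Mcm2: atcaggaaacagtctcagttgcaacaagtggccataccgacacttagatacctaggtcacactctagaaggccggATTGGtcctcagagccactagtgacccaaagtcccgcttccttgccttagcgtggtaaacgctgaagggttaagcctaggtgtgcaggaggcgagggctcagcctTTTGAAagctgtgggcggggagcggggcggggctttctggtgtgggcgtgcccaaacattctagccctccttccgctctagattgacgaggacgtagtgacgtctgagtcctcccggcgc
Mcm10: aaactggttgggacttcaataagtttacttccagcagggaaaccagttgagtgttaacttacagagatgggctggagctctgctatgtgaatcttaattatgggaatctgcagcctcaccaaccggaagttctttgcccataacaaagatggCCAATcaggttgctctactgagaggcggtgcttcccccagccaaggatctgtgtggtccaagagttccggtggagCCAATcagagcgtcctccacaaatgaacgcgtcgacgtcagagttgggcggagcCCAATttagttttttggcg
Mcm6: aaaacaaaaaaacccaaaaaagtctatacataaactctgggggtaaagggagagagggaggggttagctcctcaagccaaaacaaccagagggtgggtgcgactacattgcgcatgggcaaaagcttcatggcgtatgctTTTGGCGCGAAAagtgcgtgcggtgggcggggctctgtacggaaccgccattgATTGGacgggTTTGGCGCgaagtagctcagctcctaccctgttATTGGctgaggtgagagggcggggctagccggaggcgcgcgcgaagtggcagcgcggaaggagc
Cep55: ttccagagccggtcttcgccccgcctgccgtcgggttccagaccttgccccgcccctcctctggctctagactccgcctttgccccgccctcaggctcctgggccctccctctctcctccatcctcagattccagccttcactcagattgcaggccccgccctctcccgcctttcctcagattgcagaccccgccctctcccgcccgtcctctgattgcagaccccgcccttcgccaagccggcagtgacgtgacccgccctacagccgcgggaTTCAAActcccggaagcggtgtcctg
Plk1: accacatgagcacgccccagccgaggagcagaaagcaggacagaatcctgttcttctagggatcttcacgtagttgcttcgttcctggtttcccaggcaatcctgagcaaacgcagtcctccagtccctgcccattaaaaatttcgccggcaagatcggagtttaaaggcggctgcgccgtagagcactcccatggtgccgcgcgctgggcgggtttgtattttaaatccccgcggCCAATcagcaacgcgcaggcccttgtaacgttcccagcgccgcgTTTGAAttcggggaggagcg
Mki67: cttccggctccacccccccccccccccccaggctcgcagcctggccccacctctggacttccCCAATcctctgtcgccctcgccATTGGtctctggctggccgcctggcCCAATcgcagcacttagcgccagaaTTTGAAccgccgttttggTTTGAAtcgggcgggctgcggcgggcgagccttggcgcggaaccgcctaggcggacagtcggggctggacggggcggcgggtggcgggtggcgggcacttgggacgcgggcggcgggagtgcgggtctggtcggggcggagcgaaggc
An E2F match lay in 6 of the 13 replication promoters (46.2%), 1 of the 11 mitosis promoters (9.09%) and 1 of the 5 G1 promoters (20.0%), against 626 of all 27025 promoters of the same length (2.32%). A CHR match lay in 8 of 11 mitosis promoters (72.7%), 1 of 13 replication promoters (7.69%, Mcm2) and 0 of 5 G1 promoters, against 18.1% of all promoters. CCAAT lay in 9 of 11, 9 of 13 and 1 of 5, against 37.9% of all. These are letters in a window and no measure of binding. Mcm2 and Mcm10, the replication genes that passed the test on a diet, had 0 E2F matches in it, and Mcm6 had 3. The Mcm10 window ends in tttggcg, which is TTTGGCGC without its last letter. A match running past the end of the window would not be counted.

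All levels below are log2 of the quantile-normalised signal. A difference of 1 is a 2-fold change, and a level may be compared between mice for 1 gene but not between genes. Normalised signals under a floor of 13.9 (3.80 on the log2 scale) were set to it. Between 62.6% and 78.5% of gene probes were well above background on each array, and arrays of 1 group correlated at 0.973 to 0.995. The number of mice per group limits the precision. The test was limma's moderated test on the 6 groups together, with Benjamini-Hochberg adjustment over 21075 genes and a threshold of 0.05. Arrays had been scanned on 3 days (5, 11 and 14 arrays), and each day held several groups, so values within a day are given where they can be had. In whole liver, fewer cells of a type and less RNA per cell cannot be told apart.

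On the iron-enriched diet, cyclin D1 stood higher in both strains, Mcm2 stood higher when the strains were averaged, and Mcm10 stood lower in B6 mice only, a difference between the strains that itself passed the test. Averaged over strains, 3 of 35 members passed, 2 higher and 1 lower, against 2.23% of all genes tested. In B6 mice alone 2 of 35 passed, Ccnd1 and Mcm10, against 5.83% of all genes. In D2 mice alone 1 of 35 passed, the dim mitosis gene Cep55, against 0.0902% of all genes, a call that most other settings did not keep. The enrichment effect differed between the strains for 2 of 35 members, Mcm10 and Cep55, against 1.11% of all genes. Cep55 was tested only through its level in enriched D2 mice, so neither of its calls gives independent support.

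Ccnd1, the D-type cyclin through which growth signals start the cycle in hepatocytes, was at 10.33, 10.63, 11.12, 11.24 and 10.86 in the 5 enriched D2 livers, against 8.98, 9.45, 9.62, 9.32 and 9.83 in the balanced ones. In B6 livers it was at 11.54, 11.80, 11.17, 10.90 and 12.51 on the enriched diet, against 10.41, 10.85, 10.47, 9.07 and 10.27 on the balanced diet. In both strains every enriched mouse lay above every balanced mouse. The averaged difference was 1.38 (SE 0.23), 2.61-fold, with an adjusted p of 0.000667 by limma and 10 of 10 enriched mice on the same side. Taken alone, the B6 difference was 1.37 (SE 0.32, adjusted p = 0.00971, but 0.109 when only the compared groups were fitted), and the D2 difference of 1.40 (SE 0.32) did not pass (adjusted p = 0.140). The strains' effects differed by 0.03 (SE 0.46, adjusted p = 0.994). Within scan day 2 the averaged difference was 1.58, and within day 3 it was 1.06, neither of which passed in the smaller groups. No other G1 member passed on the enriched diet: the median over the 8 was 0.11 in D2 and 0.06 in B6, against -0.01 and 0.03 over all genes. Among them, Cdk2 differed by -0.27 in D2 and -0.54 (SE 0.21, adjusted p = 0.16) in B6. A second Cdk2 probe gave 0.03 in D2 and -0.47 in B6, so the D2 decrease was seen by 1 probe only.

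Mcm10, the replication fork factor, set the strains apart. Its signal in B6 livers was 11.83, 12.32, 12.00, 12.46 and 12.01 on the enriched diet, against 13.50, 14.15, 13.95, 14.37 and 14.24 on the balanced diet. In D2 livers it was 14.63, 14.59, 14.81, 14.85 and 14.70 on the enriched diet, against 14.73, 14.83, 15.04, 14.63 and 14.82 on the balanced diet. The B6 groups lay apart by more than 1 log2 unit, while the D2 groups overlapped. Mcm10 fell by 1.92 in B6 (SE 0.15, adjusted p = 8.48e-09), which is 3.77-fold, and the D2 difference was -0.09 (SE 0.15, adjusted p = 1). The strains' effects differed by 1.82 (SE 0.22, adjusted p = 7.13e-05), and averaged over strains Mcm10 was lower, at a difference of -1.004 (SE 0.11, adjusted p = 1.99e-06). Within scan day 3, which held 4 enriched and 3 balanced B6 mice, the B6 difference was -2.17 with an adjusted p of 0.000196. Within day 2, with 1 B6 mouse of each diet, it was -1.18 and did not pass. A single probe stands for Mcm10, and no other replication gene passed in B6: the median over the 15 replication members there was -0.01, against 0.03 over all genes.

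Mcm2, a subunit of the replicative helicase, was at 7.68, 8.24, 8.37, 7.74 and 8.32 in enriched D2 livers, against 7.40, 7.42, 7.73, 7.18 and 7.61 in balanced ones. In B6 it was at 7.05, 7.30, 7.24, 6.96 and 7.59 on the enriched diet, against 7.20, 6.75, 6.27, 6.29 and 6.59 on the balanced diet. The groups of each strain overlapped through 1 or 2 mice. The averaged difference was 0.61 (SE 0.15, adjusted p = 0.0279), with all 10 enriched mice above their strain's balanced mean. It was 0.61 in each strain (SE 0.21 each), where the adjusted p was 0.609 in D2 and 0.0982 in B6. The averaged call was lost without enriched D2 mouse 2, 3 or 5, balanced D2 mouse 4, enriched B6 mouse 5 or balanced B6 mouse 3 or 4, with an adjusted p of up to 0.0630 and a difference of 0.56 to 0.68 over all mice left out in turn. Pcna, the polymerase clamp, was 0.22 higher in B6 (SE 0.07, adjusted p = 0.0680) with no overlap of the groups, and did not pass.

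**Figure D1:**
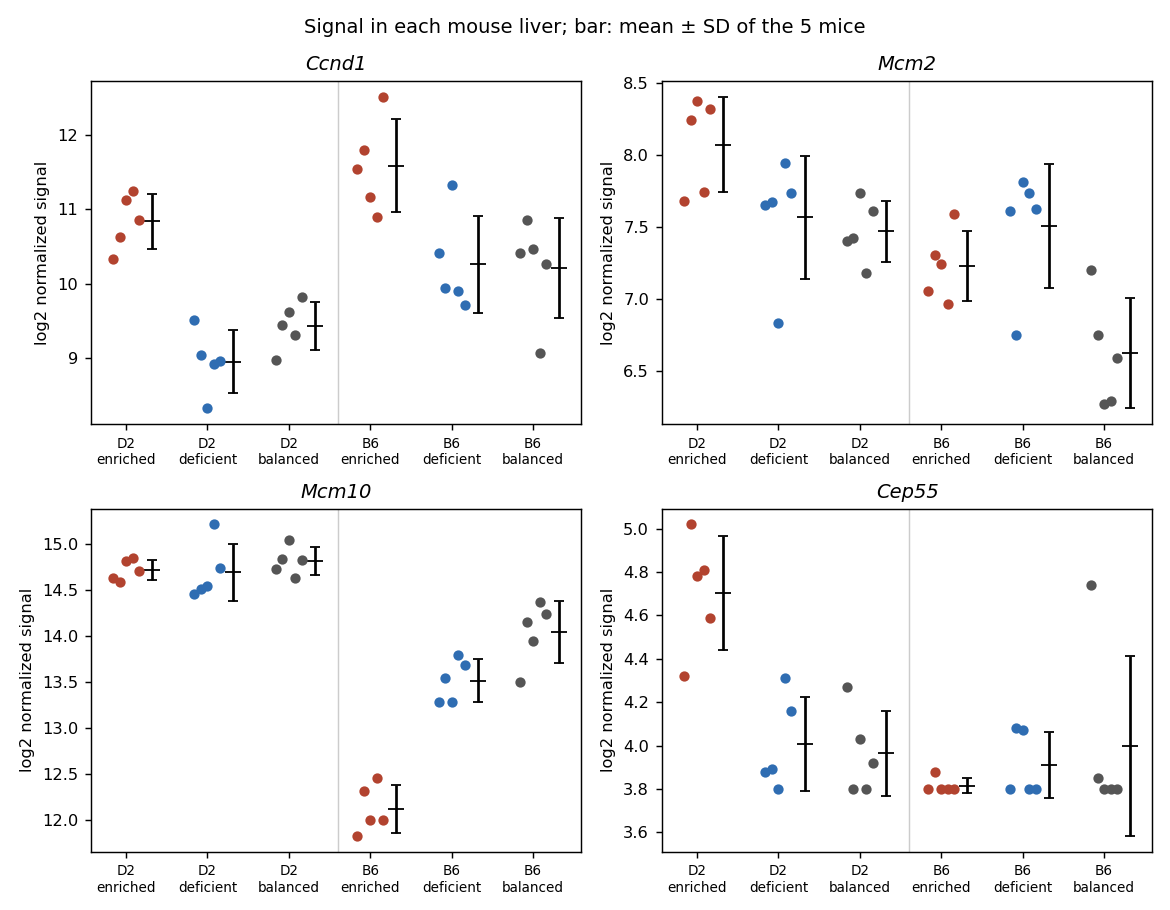
Log2 normalised signal of 4 members in every mouse, by strain and diet; points are single mice, and the bars give the mean and SD of 5 mice. Ccnd1 lies higher on the enriched than on the balanced diet in both strains, and Mcm10 lies lower in enriched B6 mice only. The mean differences of Mcm2 and Cep55 between diets stay under 1 log2 unit, and Cep55 lies near the floor.

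The tested mitosis genes had positive differences on the enriched diet in D2 livers and negative ones in B6, in most cases without passing singly. Of the 12, Cep55, Bub1 and Aurkb met the filter on dim probes in D2 only through the enriched mice, in which they were brighter, so a positive D2 difference was built into their selection. The 9 that met it on deficient and balanced mice alone, a filter added after seeing the data, were all positive in D2, with a median of 0.54, against -0.01 over all genes, and all negative in B6, with a median of -0.15, against 0.03. With the 3 included the medians were 0.68 in D2 and -0.14 in B6. In the same comparison 13 of 15 replication members were positive in D2 (median 0.39), all but Mcm10 and Tyms (-0.01), and 7 of 15 in B6. Over all genes, 48.3% of differences were positive in D2 and 56.2% in B6. The differences of effect between strains were positive for the same 9 mitosis members (median 0.82) and 12 of 15 replication members (median 0.41), against -0.03 over all genes. Of the 9 none passed singly in D2, and of the 3 only Cep55 did, so the members are given as values. At an unadjusted p under 0.05, 18 of 35 members were higher in D2 and 0 lower, against 5.49% of all genes. They were 9 mitosis, 8 replication and 1 G1 gene. These 9 mitosis genes are not the 9 above, since they include Cep55, Bub1 and Aurkb, which their selection favoured. For those 3 the count gives no independent support.

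Cep55, which acts in the final cut between daughter cells, was at 4.32, 5.02, 4.78, 4.81 and 4.59 in enriched D2 livers, against 4.27, 3.80, 4.03, 3.80 and 3.92 in balanced ones. The lowest enriched mouse lay just above the highest balanced mouse. Its probe was well above background in 4 of 5 enriched, 1 of 5 deficient and 0 of 5 balanced D2 mice, so it was tested only because of its level in the enriched mice, and its p gives no independent support. The bound was at least 1.39-fold higher (means 4.70 and 3.96), with a difference on the measured scale of 0.74 (SE 0.15, adjusted p = 0.0479). Such a bound sets the mean of the bright group against the lowest signals called above background on the arrays of the dim group. In B6, where it was at 3.80, 3.88, 3.80, 3.80 and 3.80 on the enriched diet, against 4.74, 3.85, 3.80, 3.80 and 3.80 on the balanced diet, the difference was -0.18, and the strains' effects differed by 0.92 (SE 0.21, adjusted p = 0.03). The D2 call was lost when any of 26 of 30 mice was left out (all but enriched D2 mouse 1, deficient D2 mouse 4, balanced D2 mouse 1 and balanced B6 mouse 1), with an adjusted p of up to 0.219 and a difference of 0.66 to 0.84, and a second Cep55 probe gave 0.05 in D2. The call was also lost with no filter on dim probes (adjusted p = 0.0687), with only the compared groups (adjusted p = 0.421), by the methods' t-test (adjusted p = 0.0649), with the mean of both probes (0.40), after normexp (0.21), and with 75th percentile scaling (0.16) or no normalisation (0.19), where the other probe stood for the gene. Under those scalings the first probe gave 0.65 and 0.48. Within scan days 1, 2 and 3 the difference was 0.90, 0.75 and 0.75, and none of these passed; with the scan day or the slide as a block the call was kept.

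Mki67, the proliferation antigen, was at 8.06, 8.97, 8.42, 8.38 and 8.24 in enriched D2 livers, against 7.55, 8.02, 7.80, 7.58 and 7.54 in balanced ones. Cdk1, the mitotic kinase, was at 5.59, 6.02, 6.13, 5.70 and 5.75 in enriched D2 livers, against 5.10, 5.44, 5.32, 4.74 and 5.28 in balanced ones. In neither gene did the diets overlap, and the differences were 0.71 (SE 0.27, adjusted p = 0.716) and 0.66 (SE 0.29, adjusted p = 0.842). Plk1, a kinase of mitotic entry, was at 7.22, 7.56, 7.25, 7.26 and 6.77 in enriched D2 livers, against 6.45, 6.53, 6.18, 6.23 and 6.88 in balanced ones, a difference of 0.76 (SE 0.21, adjusted p = 0.287). Cdc20, which activates the anaphase ubiquitin ligase, differed by 0.71 (SE 0.19, adjusted p = 0.283). Bub1, a spindle checkpoint kinase, was above background in 3 of 5 enriched and 0 of 5 balanced D2 mice, which bounds its difference at 1.33-fold or more (adjusted p = 0.121). Aurka had the smallest value of the 12, 0.28 (SE 0.18). Among the helicase subunits the D2 differences were 0.64 for Mcm5, 0.61 for Mcm2, 0.58 for Mcm6, 0.42 for Mcm4, 0.27 for Mcm3 and 0.24 for Mcm7, and each of these had 5 of 5 enriched mice above the balanced mean.

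**Figure D2:**
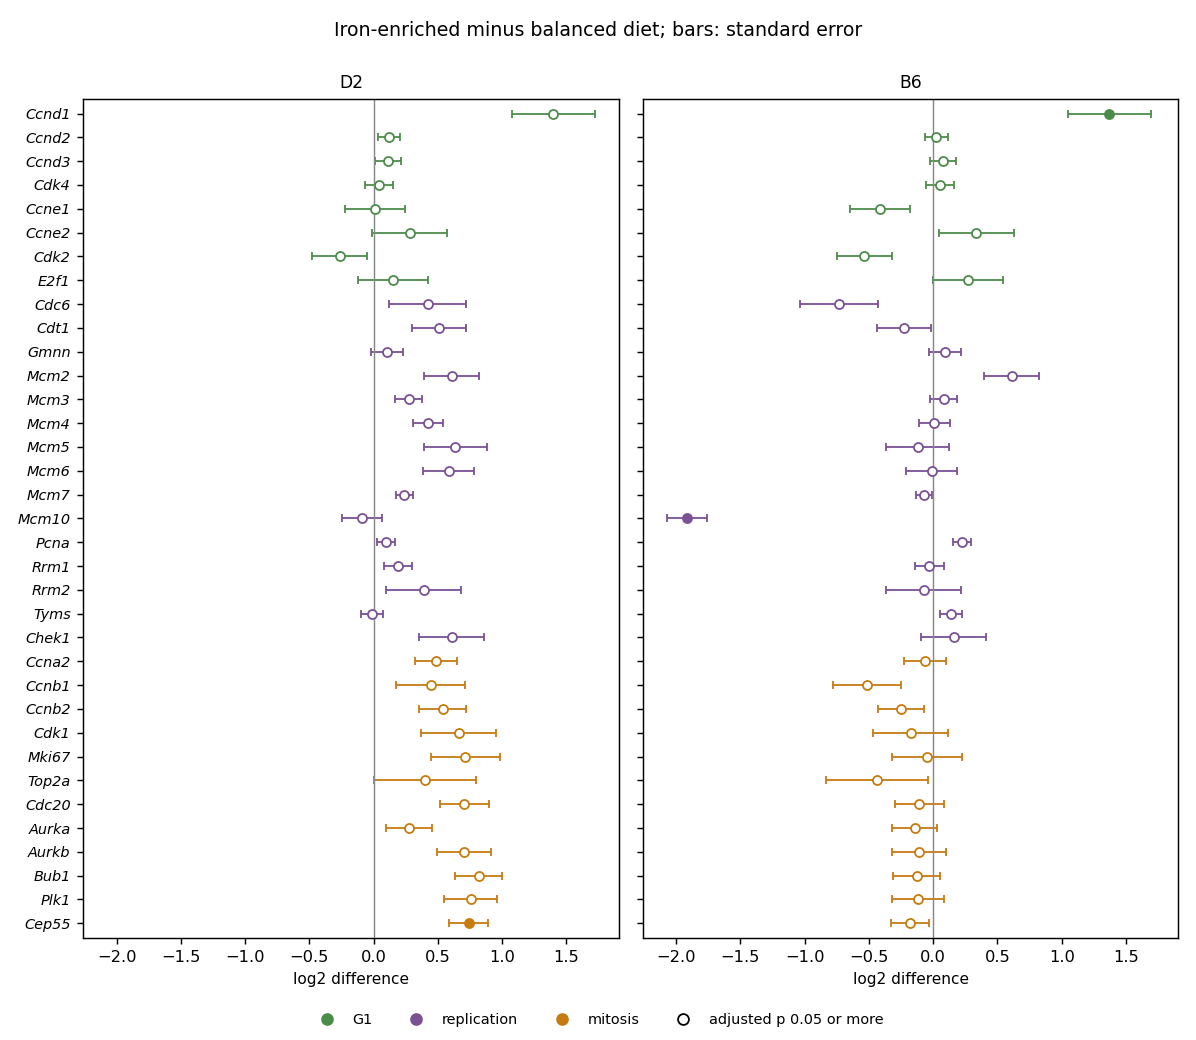
Log2 difference, enriched minus balanced diet, of the 35 tested members in D2 (left) and B6 (right); bars are standard errors, colours give the phase, and filled points had an adjusted p under 0.05. All 12 mitosis genes, 3 of which were tested only through their level in enriched D2 mice, lie right of 0 in D2 and left of 0 in B6, Ccnd1 lies near 1.4 in both, and Mcm10 lies at -1.92 in B6.

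Mouse by mouse, the median shift of the 12 mitosis genes from the balanced mean of the same strain was 0.37, 1.01, 0.69, 0.60 and 0.51 in enriched D2 mice, against -0.13, 0.06, 0.03, -0.14 and 0.12 in balanced ones. All 5 enriched D2 mice lay above all 5 balanced ones, in a median that includes the 3 dim genes Cep55, Bub1 and Aurkb. Enriched D2 mouse 2 had the highest D2 level of 7 of the 12 genes, and without it the median difference was 0.59. In B6 the shift was -0.19, 0.03, -0.19, -0.27 and -0.25 on the enriched diet, against 0.50, -0.05, -0.08, -0.20 and -0.19 on the balanced diet. Balanced B6 mouse 1 had the highest B6 level of 5 of the 12 genes, and without it the B6 median difference was -0.03 in place of -0.14. Within scan days 1, 2 and 3 the D2 median was 0.76, 0.72 and 0.53 for mitosis genes, while that of replication genes was 0.44, 0.33 and 0.04. Under other signal processing the D2 mitosis median was 0.39 with no normalisation between arrays, where all genes shifted by -0.16, and 0.26 after normexp background correction.

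**Figure D3:**
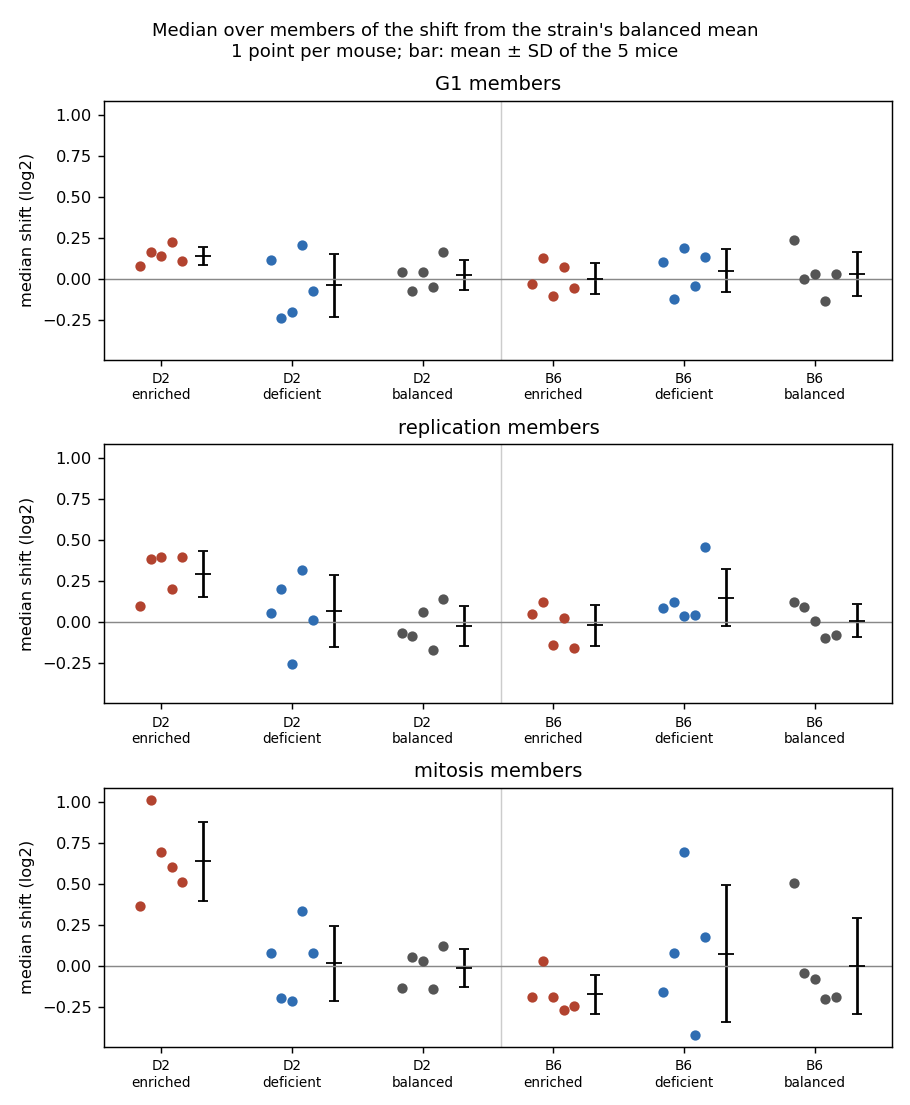
Median shift of the G1 (8), replication (15) and mitosis (12) members in each mouse from the mean of the balanced mice of its strain, in log2 units; each point is 1 mouse. Enriched D2 mice sit between 0.37 and 1.01 for the mitosis genes, above all balanced D2 mice, and 2 B6 mice, deficient mouse 3 and balanced mouse 1, stand above the remaining B6 mice.

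Markers of other liver cells also differed with the enriched diet. In enriched D2 livers 10 of 10 Kupffer cell and macrophage markers were positive with none past the threshold (median 0.15). Their summed signal ranged from 40300 to 49146, against 33048 to 39256 in balanced D2 livers, without overlap. This was not particular to enrichment: in deficient D2 livers 10 of 10 were also positive (median 0.10), with sums from 33156 to 47081. The same balanced mice served both comparisons. In B6 the summed signal ranged from 59712 to 71766 on the enriched diet, against 50934 to 108270 on the balanced diet. Summed sinusoidal endothelial markers (9 of 9 tested) ranged from 31659 to 34977 in enriched D2, against 29397 to 32105 in balanced D2, and from 41263 to 46548 in enriched B6, against 32990 to 41520 in balanced B6. Summed T cell markers (7 of 7 tested) ranged from 899.8 to 2566.8 in enriched D2, against 1329.4 to 5313.7 in balanced D2. Of 6 NK cell markers 3 were tested, and their summed signal ranged from 156.05 to 211.12 in enriched D2, against 111.95 to 156.79 in balanced D2, overlapping only at the ends (median difference 0.44, none passed). In enriched B6 the median difference was 0.18 for endothelial markers, with Stab1 and Lyve1 higher, 0.25 for 6 tested bile duct markers, with Krt19 higher, and -0.13 for 6 tested erythroid markers, with Alas2 lower. The part of these cells in the shifts was not tested. Of 10 hepatocyte markers 9 were tested, in keeping with the label liver, with a median difference of -0.05 in enriched D2 mice and -0.01 in enriched B6 mice. In D2 1 of the 9 was positive, against 48.3% of all genes, and none passed. In B6 4 of the 9 were positive, against 56.2% of all genes. There 1 of the 9 passed, against 5.83% of all genes: Apoa1, at -0.34 (SE 0.10, adjusted p = 0.0408 by limma).

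Other genes of the same phases, which are not among the 36, were also described on the enriched diet. Of 51 tested mitosis genes from a wider list (57 named), 43 were positive in D2 (median 0.31) and 19 in B6 (median -0.06), against 48.3% and 56.2% of all genes, and by limma 0 passed in either strain. Of 42 tested replication genes, 26 were positive in D2 and 20 in B6, against the same shares. In B6, Prim1, the primase subunit, passed at 0.56 (SE 0.15, adjusted p = 0.0190). Of 34 tested cycle control genes, 4 passed in B6, where 5.83% of all genes did: E2f8, a repressor of E2F targets, at -1.57 (SE 0.23, adjusted p = 8.57e-05), E2f6 at -0.26, and the Cdk inhibitors Cdkn1a at 1.25 (SE 0.38, adjusted p = 0.0470) and Cdkn1b at 0.22. In D2 0 of the 34 passed. Of 21 tested hepatocyte growth signals, Hbegf, a ligand of the EGF receptor, was 1.40 higher in enriched B6 livers, the receptor Egfr was at -1.37 and the ligand Btc at -0.73, and the Egfr effect differed between the strains by 1.44 (SE 0.29, adjusted p = 0.00936).

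On the iron-deficient diet, Ccnd2 and Mcm2 were the members that stood higher. The balanced mice are those of the enrichment comparisons, so the diet effects share their controls. Averaged over strains, 2 of 35 passed, both higher, against 8.08% of all genes, and the same 2 passed in B6 alone, where 1.79% of all genes did. In D2 mice 0 of 35 passed by limma, against 4.68% of all genes; at an unadjusted p under 0.05 there were 5 (4 higher, 1 lower), against 17.7% of all genes, and the methods' t-test gave 4 at that unadjusted threshold and 1 after adjustment. No member's deficiency effect differed between strains by limma, against 0.019% of all genes; 5 members had an unadjusted p under 0.05, against 7.12%, and the methods' t-test gave 4.

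Ccnd2, a second D-type cyclin, was at 9.51, 9.46, 9.62, 9.47 and 9.50 in deficient B6 livers, against 9.19, 9.23, 9.15, 9.15 and 9.1 in balanced ones. In D2 it was at 9.06, 9.1, 9.23, 9.15 and 9.13 on the deficient diet, against 8.96, 8.86, 9.02, 9.12 and 8.59 on the balanced diet. The B6 groups did not overlap and the D2 groups did. The averaged difference was small but tight, 0.29 (SE 0.06, adjusted p = 0.00397, 10 of 10 mice), and in B6 it was 0.35 (SE 0.09, adjusted p = 0.0340). The D2 difference was 0.22 (SE 0.09, adjusted p = 0.151), and the effects differed by -0.12 (SE 0.12, adjusted p = 0.924). The call in B6 was lost without deficient B6 mouse 1, 3, 4 or 5 or balanced B6 mouse 1, 3, 4 or 5 (0.32 to 0.37, adjusted p up to 0.0976), and also with the slide as a block (0.34, adjusted p = 0.121) or with only the compared groups (adjusted p = 0.101). The other Ccnd2 probes gave 0.34 and 0.33 in B6, and neither passed (limma over all kept probes, adjusted p = 0.152 and 0.137). Averaged over strains they gave 0.27 and 0.21, of which only the first passed (adjusted p = 0.0348 and 0.0966). In D2 they gave 0.20 and 0.08.

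Mcm2 was at 7.61, 6.75, 7.81, 7.73 and 7.62 in deficient B6 livers, against 7.20, 6.75, 6.27, 6.29 and 6.59 in balanced ones, so that 4 of the 5 deficient mice lay above every balanced mouse. In D2 it was at 7.65, 7.67, 6.83, 7.94 and 7.73 on the deficient diet, against 7.40, 7.42, 7.73, 7.18 and 7.61 on the balanced diet, with wide overlap. The B6 difference was 0.88 (SE 0.21, adjusted p = 0.0284), the D2 difference 0.10 (SE 0.21, adjusted p = 0.914) and the averaged one 0.49 (SE 0.15, adjusted p = 0.0427). The difference between strains, -0.79 (SE 0.30, adjusted p = 0.592), did not pass. The averaged value was 0.42 within scan day 2 and 0.14 within day 3, and neither passed. The averaged call was lost without any of 16 mice, which included all deficient and balanced mice of both strains except mouse 3 of both D2 groups, deficient B6 mouse 2 and balanced B6 mouse 1 (0.45 to 0.59, adjusted p up to 0.0815). The B6 call was lost without deficient B6 mouse 1, 3, 4 or 5 or balanced B6 mouse 3, 4 or 5 (0.80 to 1.07, adjusted p up to 0.0872). With the slide as a block both calls were lost (0.77 in B6, adjusted p = 0.117, and 0.41 averaged, adjusted p = 0.0884), as they were with only the compared groups (adjusted p = 0.218 and 0.0821), and the averaged one with no filter on dim probes (adjusted p = 0.0615). Ccnd1, by contrast, was -0.48 in deficient D2 mice (SE 0.32, adjusted p = 0.494) and 0.05 in deficient B6 mice, and Mcm10 was -0.53 in deficient B6 mice (SE 0.15, adjusted p = 0.0818).

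Among members that did not pass, Ccnd3, the third D-type cyclin, was at 11.85, 11.99, 11.74, 11.77 and 11.57 in deficient D2 livers, against 11.41, 11.54, 11.29, 11.53 and 11.50 in balanced ones, without overlap (0.33, SE 0.10, adjusted p = 0.0563). E2f1 lay lower in deficient than in balanced D2 mice, also without overlap (-0.53, SE 0.27, adjusted p = 0.314). A second E2f1 probe gave -0.25 (SE 0.16) there. The phase medians in deficient mice were -0.12, 0.07 and -0.01 in D2 and 0.04, 0.16 and 0.06 in B6 for G1, replication and mitosis genes, against 0.00 and 0.01 over all genes. Deficient B6 mouse 3 had the highest B6 level of 7 of 12 mitosis genes, with a median shift of 0.70, and without it the B6 mitosis median was -0.06. From the wider lists, 1 of 42 tested replication genes and 1 of 51 tested mitosis genes passed averaged over strains, against 8.08% of all genes. They were Tk1, the thymidine kinase (-0.89, SE 0.19, adjusted p = 0.00326 by limma), and Spc24, a kinetochore subunit (-0.61, SE 0.11, adjusted p = 0.00121), both lower. Of 21 tested growth signals 1 passed in deficient B6 mice, where 1.79% of all genes did. It was Hgf, the hepatocyte growth factor, 0.88 higher (SE 0.19, adjusted p = 0.0132 by limma).

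**Figure D4:**
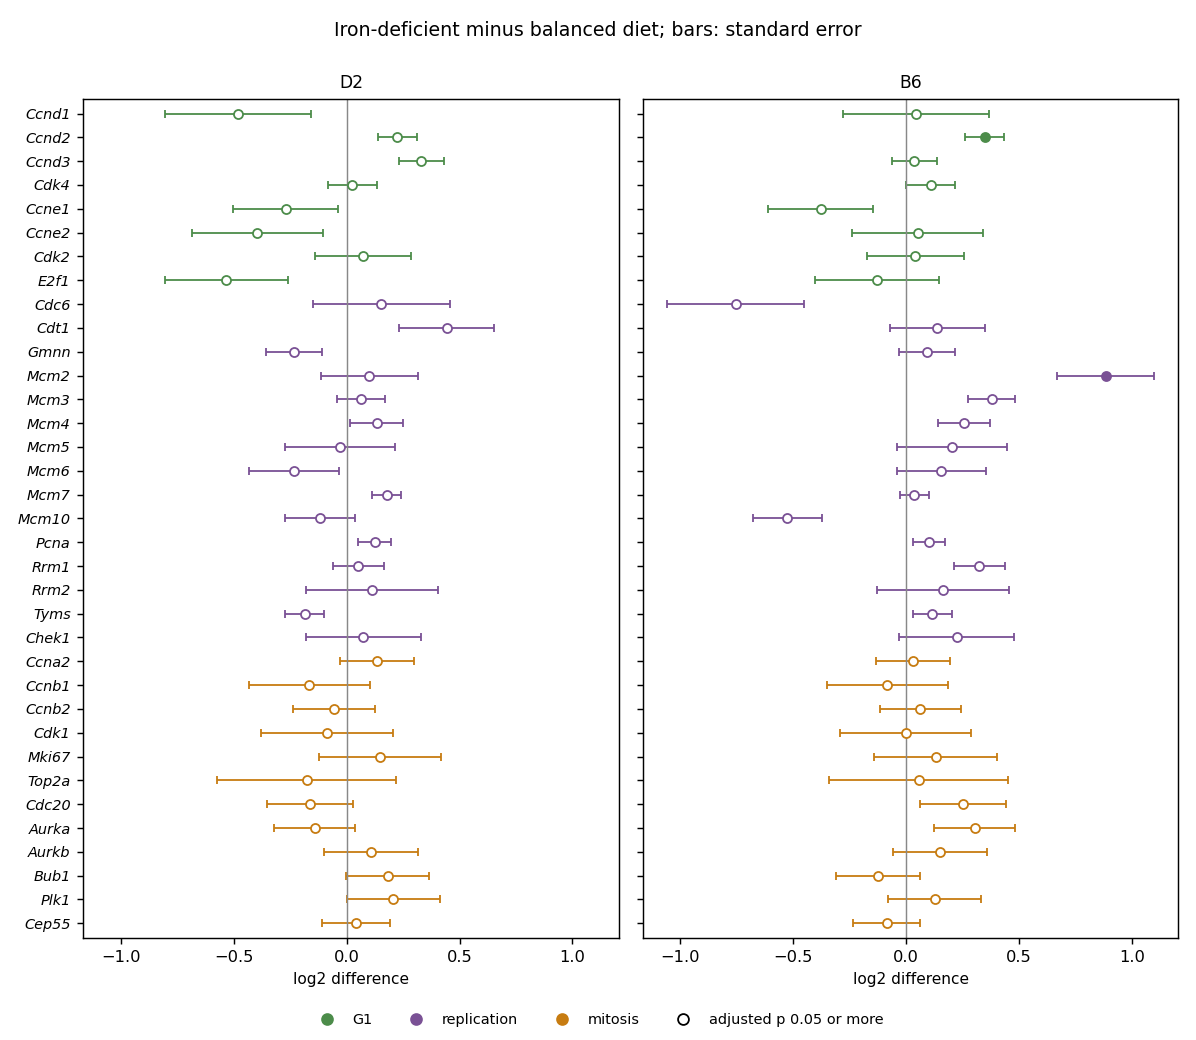
Log2 difference, deficient minus balanced diet, of the 35 tested members in D2 (left) and B6 (right), with standard errors; filled points had an adjusted p under 0.05. Filled points are Ccnd2 at 0.35 and Mcm2 at 0.88, both in B6, and none in D2.

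More members differed between the strains than on either diet, as did more genes of the whole array. Averaged over diets, 22 of 35 members passed, against 50.1% of all genes, 17 of them higher in D2 (25.9% of all genes) and 5 lower (24.2% of all genes). By phase, 7 of 8 G1 genes passed (5 higher, 2 lower), 12 of 15 replication genes (9 higher, 3 lower) and 3 of 12 mitosis genes, all higher. Cep55, 1 of those 3, was tested only through its level in enriched D2 mice, as were Bub1 and Aurkb. That selection favours a higher D2 mean. The medians were 0.30, 0.41 and 0.23 for G1, replication and mitosis genes, against -0.01 over all genes. Over the 9 mitosis genes that met the filter on deficient and balanced mice alone, the median was 0.19.

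In G1, Ccnd1 (-0.94, SE 0.19) and Ccnd2 (-0.27, SE 0.05) were lower in D2, although the 3 Ccnd2 probes disagreed, with values of -0.27, 0.09 and -0.48. The E-type cyclins ran the other way. Ccne2 was higher by 1.01, with a lowest, median and highest level of 4.82, 5.79 and 6.59 in the 15 D2 mice, against 3.80, 4.84 and 5.83 in the 15 B6 mice. Ccne1 was higher by 0.53, at 9.05, 9.59 and 10.54 in D2, against 8.61, 9.15 and 9.74 in B6. Their kinase Cdk2 was at 6.46, 7.39 and 7.79 in D2, against 6.30, 6.92 and 7.58 in B6 (0.37), and E2f1 was at 5.47, 6.29 and 6.85 in D2, against 5.27, 5.87 and 7.62 in B6 (0.39). All of these ranges overlapped, and the E2f1 call was lost when any of 19 of 30 mice was left out (0.33 to 0.51, adjusted p up to 0.0783), in the groups of both strains. A second E2f1 probe gave 0.68 (SE 0.09). Cdk4 differed by 0.23. Ccnd3 did not pass and averaged 11.56 ± 0.13, 11.78 ± 0.15 and 11.46 ± 0.11 in D2 on the enriched, deficient and balanced diets, and 11.66 ± 0.12, 11.62 ± 0.22 and 11.58 ± 0.17 in B6.

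The signals of the replication genes split by member, and did so in parts of the same complex. A single kept probe stood for Cdt1, Rrm1, Rrm2 and each Mcm gene except Mcm3. Whether these probes match the sequence of both strains equally was not tested. Cdt1, the helicase loading factor, ranged over 10.20, 10.90 and 11.50 (lowest, median, highest) in D2, against 8.70, 9.45 and 9.82 in B6, with no D2 mouse as low as any B6 mouse (1.56, SE 0.12, adjusted p = 1.74e-11). Of the helicase ring, Mcm3 was at 9.91, 10.28 and 10.54 in D2, against 8.87, 9.19 and 9.53 in B6, again without overlap (1.06, SE 0.06, adjusted p = 3.82e-14; a second probe gave 0.44). Mcm5 (0.87), Mcm4 (0.64), Mcm2 (0.58) and Mcm7 (0.12) were also higher in D2. Mcm6, of the same ring, was lower: 7.97, 8.51 and 9.72 in D2, against 9.54, 9.82 and 10.55 in B6 (-1.19, SE 0.11, adjusted p = 1.33e-09). Mcm10 was 1.51 higher in D2 (adjusted p = 5.18e-14), with differences of 2.59 on the enriched, 1.17 on the deficient and 0.77 on the balanced diet.

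The 2 subunits of ribonucleotide reductase also went opposite ways. Rrm2, the small subunit, was at 5.61, 6.43 and 6.67 in D2, against 6.88, 7.96 and 8.69 in B6, without overlap (-1.41, SE 0.17, adjusted p = 6.08e-08). Rrm1, the large subunit, was at 9.50, 9.81 and 10.13 in D2, against 9.05, 9.42 and 9.77 in B6 (0.41). Chek1 was at 4.49, 4.94 and 6.16 in D2, against 3.80, 4.35 and 5.11 in B6 (0.69). Pcna differed by only -0.10, a call that was lost when any of 19 of 30 mice was left out (-0.12 to -0.09, adjusted p up to 0.0876), and Cdc6, Gmnn and Tyms did not pass. Gmnn, the loading inhibitor, averaged 12.24 ± 0.10 in enriched D2, 11.91 ± 0.24 in deficient D2 and 12.14 ± 0.25 in balanced D2, and 12.07 ± 0.23, 12.06 ± 0.17 and 11.97 ± 0.15 in B6 on the same diets (SD, n = 5 each). Cdc6, the dimmest replication member, was well above background on 9 of 30 arrays and averaged 4.27 ± 0.77, 4.00 ± 0.42 and 3.85 ± 0.07 in D2, and 3.89 ± 0.20, 3.87 ± 0.15 and 4.62 ± 0.80 in B6, in the same order of diets.

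Of the mitosis genes, Ccnb2, a mitotic cyclin, was at 8.31, 8.89 and 9.87 in D2, against 7.61, 8.03 and 8.68 in B6 (0.88), and Ccnb1 was at 4.31, 4.80 and 5.50 in D2, against 3.80, 4.14 and 5.59 in B6 (0.44). By diet, the Ccnb1 difference was 1.11 on the enriched, 0.07 on the deficient and 0.15 on the balanced diet (SE 0.27 each), and a second probe gave 0.12 averaged over diets (adjusted p = 0.484). Cep55 was 0.32 higher, with 0.89 on the enriched, 0.10 on the deficient and -0.03 on the balanced diet (SE 0.15 each), but -0.24 with 75th percentile scaling and -0.27 with no normalisation, where its other probe had the higher mean and stood for the gene. Ccna2, Cdk1, Mki67, Top2a, Cdc20, Aurka, Aurkb, Bub1 and Plk1 did not pass. Mki67 averaged 8.41 ± 0.34, 7.84 ± 0.43 and 7.70 ± 0.21 in D2 on the enriched, deficient and balanced diets, and 7.62 ± 0.34, 7.79 ± 0.42 and 7.66 ± 0.74 in B6 (SD, n = 5 each). Bub1, the dimmest of them, averaged 4.63 ± 0.48, 3.99 ± 0.30 and 3.81 ± 0.02 in D2 and 3.86 ± 0.13, 3.86 ± 0.14 and 3.99 ± 0.42 in B6. In the balanced livers Mki67 lay at nearly the same level in both strains. Markers differed between strains too: 10 of 10 Kupffer cell markers and 9 of 9 endothelial markers were lower in D2 (medians -0.55 and -0.28), and their part in the strain differences was not tested.

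**Figure D5:**
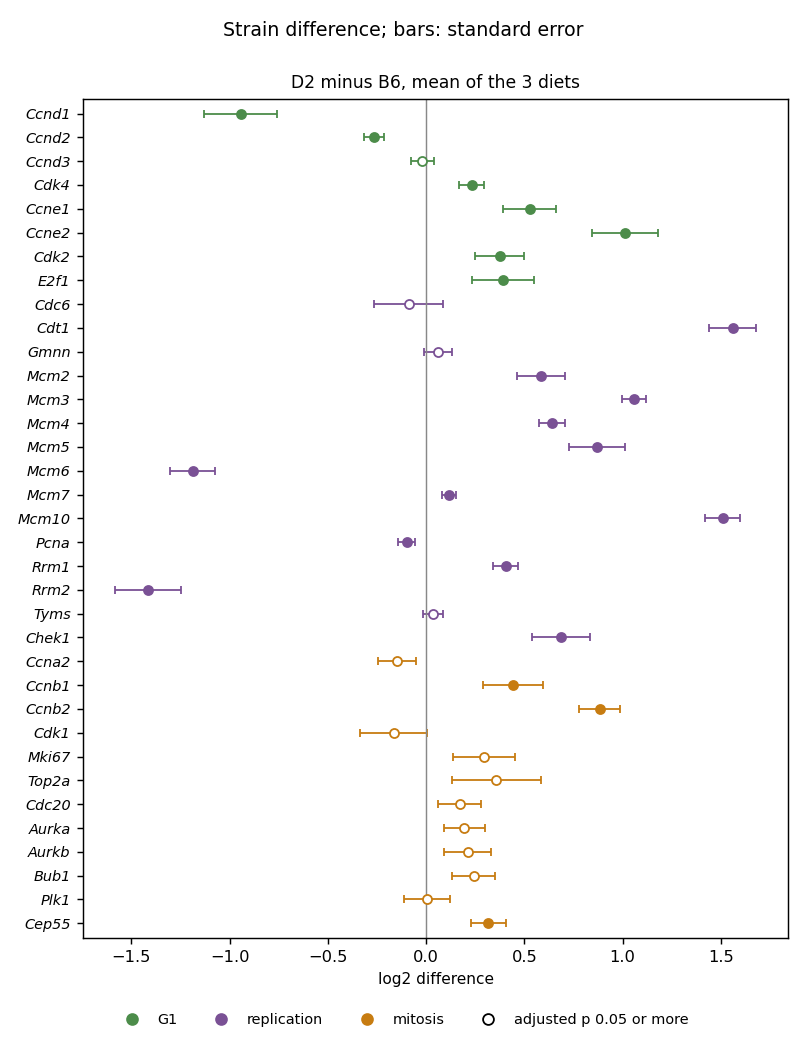
Log2 difference, D2 minus B6 averaged over the 3 diets, of the 35 tested members, with standard errors; filled points had an adjusted p under 0.05 and colours give the phase. Cdt1 and Mcm10 lie near 1.5 at the high end, and Rrm2 and Mcm6 lie below -1.1 at the low end, although all 4 are replication genes.

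Between the strains, the wider replication and mitosis lists held more genes higher than lower in D2, and the wider control list did not. Of 42 tested replication genes, 26 were higher and 4 lower in D2 (median 0.35), with Gins3, a subunit of the GINS helicase cofactor, at 1.57 and Rpa3, of the single-strand binding complex, at 0.92. Of 51 tested mitosis genes, 22 were higher and 5 lower (median 0.23), among them Pttg1, the securin, at -3.49 and the cyclin Ccnf at -1.88. Of 34 cycle control genes, 12 were higher and 12 lower (median -0.03), unlike the 8 G1 members, and the Cdk inhibitor Cdkn1a was at -4.62 (SE 0.22, adjusted p = 3.88e-16) and Cdkn1b at -0.49. Shares of all genes in each direction are those given above for the strain comparison.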

How the data were processed

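Liver RNA of 30 mice was measured on 30 arrays, 5 mice in each of 6 groups, and each sample's strain and diet were taken from its title. The authors deposited scanner output whose processed signal is a background-subtracted intensity in arbitrary units, made with Agilent Feature Extraction (9.1.3.1 per the file headers, 9.5.1 per the labels). The deposited columns marking spots well above background, saturated or outlying were used as marks. The deposited value table held the same intensity values (largest difference 0), so it was no separate alternative. Per the series' design text, the authors quantile-normalised the arrays and tested with R/MAANOVA.

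Here 1639 control spots were left out and outlier-marked spots dropped, the 43379 gene spots were averaged to 41174 probes, quantile-normalised, set to at least 13.9 (each array's lowest deposited signal marked well above background, median of 30) and put on the log2 scale with limma 3.58.1 (R 4.3.3). Probes well above background in at least 3 mice of each strain and with at least 3 values in every group were kept (29991); of 6381 genes with several, the probe of highest mean stood for the gene. Names came from RefSeq by accession (22902 probes), by symbol (6652) or from the file (11564). The 6 groups were fitted together and 9 comparisons made. In the comparisons averaged over strains, each diet difference is the mean of the D2 and B6 differences. Replicate numbers follow accession order and pair nothing. Slides (10) and scan days (3) were tried as blocks. Other alternatives were 75th percentile scaling, no normalisation, normexp correction (offset 50), no filter on dim probes and a filter at 2.6 background SD. Further ones were the mean of a gene's probes, the compared groups only, each mouse left out, and the methods' t-test. That name stands for an ordinary t-test on the fit of the 6 groups without limma's moderation. It is not the authors' R/MAANOVA test. A floor taken after scaling, and a filter on dim probes judged without the enriched mice, were added after seeing the data. The fit was tested on simulated data. The members and lists were chosen with earlier results of these data known. Members past the threshold were named with every mouse's value, up to 14 of those past it only between strains with their range, and the remainder by counts, with group means for the highest and lowest of each phase. Of each wider list, up to 4 genes of smallest adjusted p in a comparison were named. Members named outside this rule were chosen after their values were seen. A result of the wider replication list is not reported here.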

Additional observations from a re-analysis of the deposited data

Results flagged for a closer look

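Of 210 groups of 5 mice examined over the 35 tested members, 21 held a mouse far from the nearest of the others for the width of the group (for continuous values, chance flags about 1 in 20 groups). In 7 of the 21 the other 4 mice lay at the floor, and that rate does not apply to them. Deficient B6 mouse 3 stood high for Ccnb1 (5.59) and Bub1 (4.11), deficient B6 mouse 5 for Mcm5 (8.11) and Cdc6 (4.14), and deficient B6 mouse 2 stood low for Mcm2 (6.75). Deficient B6 mouse 1 was at the floor for Ccne2 (3.80). Balanced B6 mouse 1 stood high for Aurkb (4.76), Bub1 (4.74) and Cep55 (4.74), and balanced B6 mouse 3 for Ccnb2 (8.38). Enriched B6 mouse 2 was above the floor, where the other 4 lay, for Cdc6 (4.25), Bub1 (4.09) and Cep55 (3.88).

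In D2, deficient mouse 4 stood high for Cdc6 (4.74) and Bub1 (4.51), and deficient mouse 3 stood low for Mcm2 (6.83) and Rrm2 (5.61). Balanced D2 mice stood high for Top2a (6.43, mouse 3), Cdc20 (7.52, mouse 5) and Bub1 (3.85, mouse 2), the last beside 4 mice at the floor. Enriched D2 mouse 5 was at 10.87 for Mcm7.

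The effect of enrichment differed between D2 and B6, by limma's test of the difference itself, for Mcm10 (1.82) and Cep55 (0.92). Cep55 was tested only through its level in enriched D2 mice, so its call gives no independent support. A second Cep55 probe gave 0.27 for the same difference.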

How the results depend on the processing

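Of 34 single-gene results, the 2.6 background SD filter and a floor taken after scaling (chosen after seeing the data) left all 34 on their side of the threshold, and the scan day as a block left 33. The filter judged on deficient and balanced mice, also added after seeing the data, left Cep55, Bub1 and Aurkb untested and all 31 results it could give on their side. Fewer held with slide as a block (30), the mean of a gene's probes (30), no filter on dim probes (31), normexp (28), 75th percentile scaling (27), no normalisation (25) and only the compared groups (28). Within scan days 2 and 3, with 11 and 14 arrays, 12 and 19 held. Cep55 between strains turned to -0.244 with 75th percentile scaling and -0.274 with no normalisation, where its other probe stood for it. With no normalisation the median of all genes shifted by -0.161 in enriched D2 mice and by -0.168 between strains.

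The number of the 35 members past the threshold moved by more than 1.5 times as follows. For enrichment averaged over strains it was 5 with the day block, 0 within day 2, 1 within day 3 and 13 by the methods' t-test unadjusted. For enrichment in B6 it was 5 with the slide block, 4 with the day block, 0 within day 2, 1 within day 3, 1 with only the compared groups and 6 by the t-test unadjusted. For enrichment in D2 it was 2 with the day block, 18 by the t-test unadjusted, and 0 by the t-test adjusted, within days 1, 2 and 3, with 75th percentile scaling, no normalisation, normexp, no filter, the mean of probes, only the compared groups or the filter on dim probes judged on deficient and balanced mice. For deficiency averaged over strains it was 1 with no filter, the slide block or only the compared groups, 0 within day 2 and 9 by the t-test unadjusted. For deficiency in B6 it was 0 with the slide block, within days 2 and 3 and with only the compared groups, and 7 by the t-test unadjusted. For deficiency in D2 it was 1 with normexp, 3 within day 3, and 1 and 4 by the t-test adjusted and unadjusted. Between strains it was 12 within day 2. For the enrichment effect between strains it was 1 with no normalisation, normexp, that filter, within day 3 or with only the compared groups, 0 within day 2 and 14 by the t-test unadjusted; for the deficiency effect it was 4 by the t-test unadjusted. Days and single groups hold fewer arrays, and the cause of the remaining moves was not tested.

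Median differences that moved past the mouse spread were these. For G1 genes they were -0.038 (enriched D2, no normalisation), -0.267 (deficiency averaged, day 3), -0.091 (deficient B6, day 2), 0.024 and -0.456 (deficient D2, days 2 and 3), 0.121 (strain, no normalisation), -0.167 and 0.306 (enrichment effect between strains, no normalisation and day 2) and -0.377 (deficiency effect, day 3). For replication genes they were 0.039 (enriched D2, day 3), -0.067 (deficiency averaged, day 3), 0.285 and -0.319 (deficient D2, days 1 and 3), 0.205 (strain, normexp), 0.205 and -0.105 (enrichment effect, no normalisation and day 3), and 0.025 and -0.518 (deficiency effect, days 2 and 3). For mitosis genes they were -0.463 (enriched B6, day 2), 0.385 and 0.264 (enriched D2, no normalisation and normexp), -0.418 (deficient B6, day 2), 0.328 and 1.207 (enrichment effect, normexp and day 2) and 0.596 (deficiency effect, day 2).

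Leaving out each of 30 mice in turn gave 2 to 5 members for enrichment averaged (5 without balanced B6 mouse 1), 2 to 3 in B6, 0 to 2 in D2, 1 to 4 for deficiency averaged, 0 to 3 in B6, 0 to 1 in D2, 20 to 25 between strains, 1 to 3 for the enrichment effect between strains and 0 to 0 for the deficiency effect. The Cep55 strain effect of enrichment lost its call without enriched D2 mouse 2, 3 or 4, balanced D2 mouse 2 or 4 or enriched B6 mouse 5 (adjusted p up to 0.0686). The Ccnd1 and Mcm10 calls for enrichment were kept in each of the 30. No paired analysis was possible because the replicate numbers only name a mouse. Cep55, Bub1, Aurkb and Cdc6 lay near the floor, which limits what signal over background can show of them.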

Other observations

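Single genes of 3 marker lists had an enrichment effect that differed between the strains, as did 1.11% of all genes. They were 1 of 6 tested erythroid markers (4 of 6 with a positive difference of effects), 1 of 6 bile duct markers (1 of 6 positive) and 1 of 9 endothelial markers (3 of 9 positive), so none speaks for its list. Alas2, the erythroid enzyme of heme synthesis, was lower in enriched than in balanced B6 livers (-1.35, SE 0.17, adjusted p = 1.15e-05 by limma), and its enrichment effect differed between D2 and B6 by 1.66 (SE 0.24, adjusted p = 0.000595). Krt19, a keratin of bile duct cells, was 0.72 higher in enriched B6 livers (adjusted p = 0.00902), with an effect that differed by -1.07 between D2 and B6 (adjusted p = 0.0243). Lyve1, a receptor of sinusoidal endothelium, was 0.69 higher there (adjusted p = 0.0490), and its effect differed by -1.18 (adjusted p = 0.0461). On the deficient diet averaged over strains, 8.08% of all genes passed. Of 21 tested growth signals 4 were higher and 0 lower: Igfbp1 (0.82), Hgf (0.46), Tgfb1 (0.40) and Stat3 (0.36). Of 34 tested cycle control genes 4 were higher and 2 lower. Those of smallest adjusted p were Tfdp1 (0.245), Ccng1 (-0.248), Cdkn2b (0.48), a Cdk4 inhibitor, and E2f6 (0.17). In deficient D2 livers 1 of the 34 was higher, Tfdp1 (0.26), and 1 lower, against 4.68% of all genes. The lower one was Gadd45a, a stress-induced cell cycle gene (-1.23, SE 0.33, adjusted p = 0.0325 by limma).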
